A study of Homo sapiens with 4 samples.

Results

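The IGF-binding proteins IGFBP1 to IGFBP7 and the receptors IGF1R and IGF2R were measured as RNA in T24 and 5637, established human lines from urinary bladder carcinomas. The set of 9 genes was chosen on the lower level of IGFBP5 in treated T24 and completed with the rest of its family and both receptors, so that difference is given as a description. All 9 were found by Ensembl ID among the 60617 genes of the table. Untreated T24, T24 given protodioscin at 60 µM for 6 h, untreated 5637 and 5637 given protodioscin at 70 µM for 6 h each gave 1 library. Protodioscin is a steroidal saponin of plants such as yam and fenugreek. The doses are those of the sample titles, whereas the treatment protocol writes them as millimolar. Cells of both lines grew in RPMI medium with serum, and no vehicle is named for the controls. Levels are in FPKM, read fragments divided by transcript length and by the size of the library, so that genes can be compared with each other. Where a pair of values is given for a line, the untreated library comes first.

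Insulin-like growth factors are secreted peptides that stimulate growth and survival through IGF1R, a receptor tyrosine kinase related to the insulin receptor. IGF2R, the cation-independent mannose 6-phosphate receptor, carries lysosomal enzymes to lysosomes and takes up IGF2 for degradation. IGFBP1 to IGFBP6 bind the growth factors with high affinity outside the cell, where they limit or prolong access to the receptor, and IGFBP7 binds them weakly. Serum in the medium supplies ligand, so the transcripts below describe only what the cells themselves make.

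The 80 bases just upstream of the RefSeq start are printed for the 6 genes with a single start in the promoter table. They are on GRCh38.p14, 5′ to 3′ on the gene's strand. For IGFBP3 and IGFBP6 these bases lie inside the gene as annotated by GENCODE. The IGFBP3 gene reaches 45921874 on the minus strand, and the IGFBP6 gene begins at 53097436 on the plus strand. The annotated 5′ end of both genes thus lies upstream of the bases printed. Which start the cells used was not tested. IGFBP2 had 3 starts in the table and is not printed, and IGFBP1 and IGFBP7 were not matched. Capitals mark a form of the TATA element. The forms searched on both strands were TATAAA, then its variant TATATA, and lastly the variant written TATTTA, all picked after the windows had been read.

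IGFBP3 (chr7:45921273-45921352, minus strand): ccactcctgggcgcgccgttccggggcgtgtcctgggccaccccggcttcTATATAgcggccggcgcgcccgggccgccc
IGFBP4 (chr17:40443370-40443449, plus strand): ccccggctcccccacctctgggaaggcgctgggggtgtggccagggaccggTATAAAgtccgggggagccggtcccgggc
IGFBP5 (chr2:216695550-216695629, minus strand): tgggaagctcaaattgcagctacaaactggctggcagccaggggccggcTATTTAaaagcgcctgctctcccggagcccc
IGFBP6 (chr12:53097587-53097666, plus strand): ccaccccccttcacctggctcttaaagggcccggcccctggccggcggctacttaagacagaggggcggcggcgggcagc
IGF1R (chr15:98648459-98648538, plus strand): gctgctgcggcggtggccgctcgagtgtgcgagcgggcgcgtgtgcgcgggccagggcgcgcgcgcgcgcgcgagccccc
IGF2R (chr6:159969002-159969081, plus strand): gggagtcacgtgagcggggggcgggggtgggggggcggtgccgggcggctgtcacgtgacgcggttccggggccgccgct

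The capitals began 31 bases before the start in IGFBP5 (TATTTA), 29 bases before it in IGFBP4 (TATAAA) and 30 bases before it in IGFBP3 (TATATA, which reads the same on both strands). IGFBP6, IGF1R, IGF2R and the 3 starts of IGFBP2 had no match on either strand within the whole 300-base window. Of 35116 windows of the same length in the promoter table, 3.83% held 1 of the 3 motifs on the gene's strand with its first base 40 to 20 bases before the start, and 4.99% did so on either strand. Anywhere in the window and on either strand, 21.6% held 1 of them. GC content of the window was 59% for IGFBP5 and 61.7% for IGFBP6, close to the median of 58.7% over all windows. It was 74.7% for IGFBP3, 74.0% for IGFBP4, 79.7% for IGF1R and 78.7% for IGF2R. CpG dinucleotides numbered 9 in the window of IGFBP5, 12 in that of IGFBP6, 36 in IGFBP3, 30 in IGFBP4, 55 in IGF1R and 41 in IGF2R, with a median of 14 over all windows. These letters describe the sequence only, and no binding was measured here.

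The libraries differed in ways that bear on all values. Relative depth, from what 1 read is worth in the lowest values, was 1.28 times that of untreated T24 in treated T24, 1.44 times in untreated 5637 and 1.21 times in treated 5637. The share of all FPKM on mitochondrially encoded transcripts was 4.50% untreated and 3.74% treated for T24, and for 5637 it was 9.84% untreated and 11.9% treated. Of 10 epithelial markers of urothelial carcinoma, 10 reached 1 FPKM in both 5637 libraries and 7 did in both T24 libraries, where the basal keratin KRT5 was listed at 0 and the epithelial cadherin CDH1 was at 0.016 and 0 FPKM. KRT17 and GATA3 went the other way, while the rest of the epithelial list was lower in T24. KRT17 was at 634 and 485 FPKM in T24, against 404 and 324 FPKM in 5637. GATA3 was at 17.6 and 17.4 FPKM in T24, against 14.5 and 17.0 FPKM in 5637. Of 5 mesenchymal markers, 5 reached 1 FPKM in both T24 libraries and 4 in both 5637 libraries. VIM alone among them was higher in 5637, at 304 and 267 FPKM, against 68.0 and 61.4 FPKM in T24. Summed over the list, fibroblast markers were at 1.09 and 1.08 FPKM in T24, against 7.29 and 7.99 FPKM in 5637, mostly COL1A1, with DCN and LUM listed at 0 in all 4 libraries. Leukocyte markers summed to 0.147 to 0.927 FPKM.

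IGFBP4 was by far the most abundant member in every library. IGFBP4 (ENSG00000141753, GRCh38 chromosome 17, 40443461 to 40457731, plus strand), a binding protein that holds IGF until a protease cuts it, was at 1449.96 FPKM in untreated T24, 1309 FPKM in treated T24, 162.4 FPKM in untreated 5637 and 147 FPKM in treated 5637. Both T24 libraries were far above both 5637 libraries, and the gene ranked 12 among all genes in untreated T24. Of the summed FPKM of the 7 binding proteins it made up 85.2% (untreated) and 83.6% (treated) in T24, against 64.9% and 66.6% in 5637. That sum was 1702 and 1565 FPKM in T24 against 250.1 and 220.7 FPKM in 5637.

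**Figure D1:**
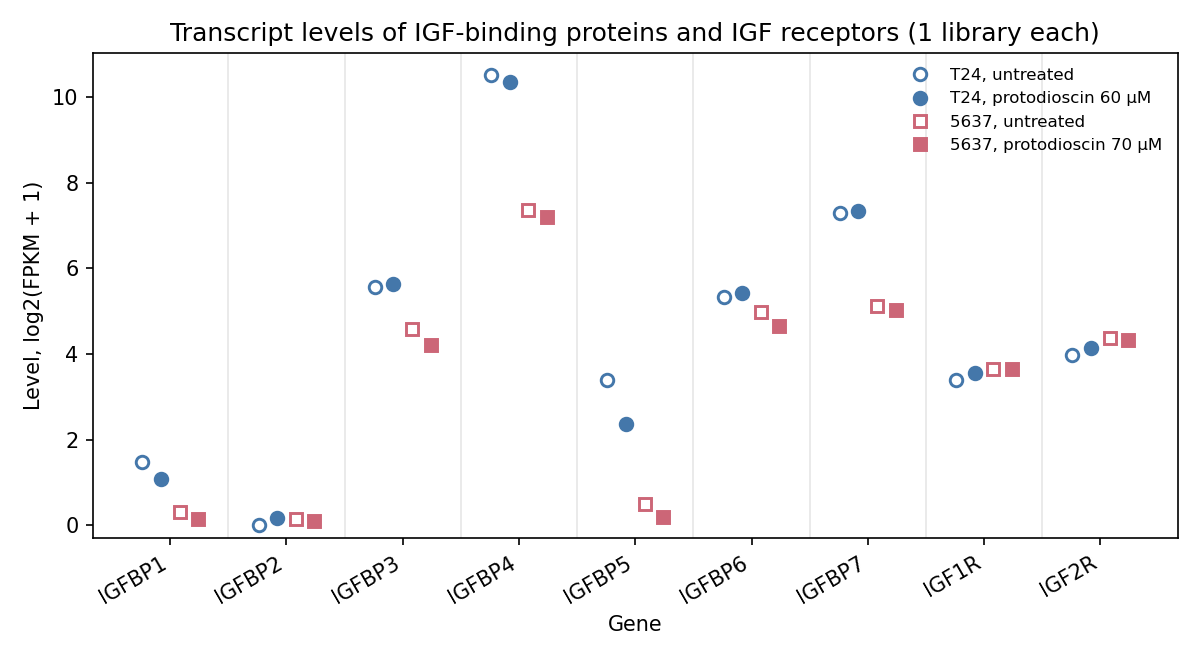
Levels of the 9 members on the log2(FPKM + 1) scale (vertical axis) by gene (horizontal axis), with 1 point for each library and no error bars because no group has a replicate. IGFBP4 is highest in all 4 libraries, both T24 libraries lie above both 5637 libraries for IGFBP1 and for IGFBP3 to IGFBP7, and the receptors are at similar levels in both lines. The share of all genes separated in this way was not counted. By a different measure, the limma test between the lines, 35.1% of genes tested were called higher and 33.9% lower in T24.

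Second in level came IGFBP7 (ENSG00000163453, chromosome 4, 57030773 to 57110385, minus strand), a secreted matrix protein also known as angiomodulin. It was at 155.4 FPKM untreated and 160.2 FPKM treated in T24, against 33.6 and 31.8 FPKM in 5637. Its exons overlap those of POLR2B on the opposite strand, and the libraries do not mark strand, so reads of the 2 genes cannot be told apart where they overlap. POLR2B, a subunit of RNA polymerase II, was at 28.8 and 29.1 FPKM in T24, against 13.4 and 14.1 FPKM in 5637, below IGFBP7 in each library.

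IGFBP3 (ENSG00000146674, chromosome 7, 45912245 to 45921874, minus strand), the main carrier of IGFs in blood, was at 46.2 FPKM untreated and 48.8 FPKM treated in T24, against 22.9 and 17.5 FPKM in 5637. IGFBP6 (ENSG00000167779, chromosome 12, 53097436 to 53102345, plus strand), which prefers IGF2 over IGF1, was at 39.3 and 41.8 FPKM in T24, against 30.4 and 24.1 FPKM in 5637. For both genes the T24 libraries lay above the 5637 libraries. The share of all genes separated in this way was not counted. By a different measure, the limma test described below, 35.1% of all genes tested were called higher in T24.

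The receptors came next and varied least between libraries. IGF2R (ENSG00000197081, chromosome 6, 159969099 to 160113507, plus strand) was at 14.7 FPKM untreated and 16.6 FPKM treated in T24, against 19.8 and 19.0 FPKM in 5637. IGF1R (ENSG00000140443, chromosome 15, 98648539 to 98964530, plus strand) was at 9.56 FPKM untreated and 10.7 FPKM treated in T24, against 11.6 and 11.6 FPKM in 5637. IGF2R exceeded IGF1R in all 4 libraries, by a ratio of 1.54 to 1.70. The insulin receptor INSR, which shares ligands and adaptors with IGF1R, was at 0.140 and 0.208 FPKM in T24, against 1.499 and 1.89 FPKM in 5637.

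IGFBP5 stood apart in range. IGFBP5 (ENSG00000115461, chromosome 2, 216672105 to 216695525, minus strand), a binding protein that also attaches to the extracellular matrix, was at 9.46 FPKM in untreated T24, 4.18 FPKM in treated T24, 0.406 FPKM in untreated 5637 and 0.151 FPKM in treated 5637. The untreated T24 library was 23.3 times as high as untreated 5637, and the treated T24 library 27.7 times as high as treated 5637. The antisense gene whose exons overlap IGFBP5 (AC007563.2) was listed at 0 in all 4 libraries.

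IGFBP2 in every library and IGFBP1 in 5637 were at or near the limit of these libraries, and IGFBP1 was low in T24. IGFBP1 (ENSG00000146678, chromosome 7, 45888357 to 45893668, plus strand), made mainly by liver and decidua and induced by fasting, was at 1.77 FPKM untreated and 1.11 FPKM treated in T24, against 0.239 and 0.0981 FPKM in 5637. IGFBP2 (ENSG00000115457, chromosome 2, 216632828 to 216664436, plus strand), abundant in fetal tissues, was listed at 0 in untreated T24 and was at 0.116 FPKM in treated T24, 0.0986 FPKM in untreated 5637 and 0.0641 FPKM in treated 5637. It is therefore not counted among the members compared, which needed 1 FPKM in at least 1 library.

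Taking the untreated and treated library of a line as its range, neighbours in the order of level were separate in T24, although IGF1R (9.56 to 10.7 FPKM) and IGFBP5 (4.18 to 9.46 FPKM) almost touched. In 5637 the order was IGFBP4, IGFBP7, IGFBP6, IGFBP3, IGF2R, IGF1R, IGFBP5, IGFBP1 and IGFBP2 when untreated. There the ranges of IGFBP3 and IGF2R overlapped, as did those of IGFBP5 and IGFBP1 and those of IGFBP1 and IGFBP2.

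The family lies partly in convergent pairs on the chromosome whose members were at very different levels. IGFBP2 and IGFBP5 face each other with 7668 bases between their ends, and in untreated T24 the first was listed at 0 while the second was at 9.46 FPKM. IGFBP1 and IGFBP3 face each other across 18576 bases, at 1.77 and 46.2 FPKM in the same library. On its other side IGFBP5 has TNP1, a sperm nuclear protein gene 163932 bases away, which was listed at 0 in all 4 libraries.

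With protodioscin in T24, IGFBP5 was at 44.1% of its untreated level, a difference of -1.02 on the log2(FPKM + 1) scale, and the other members differed by less. This is the difference by which the set was chosen and it has no replicate. IGFBP5 was 1 of 34 genes (0.279% of 12193 compared) at least 2-fold lower in treated T24, and 25 genes (0.205%) were at least 2-fold higher, none of them a member. Leaving out genes with exons in common on 1 strand, 12 genes were 2-fold lower and 3 higher in T24, IGFBP5 among the former. It lies just inside the 2-fold rule, and the next lowest member, IGFBP1, lies well outside it at -0.39. IGFBP5 was at -0.66 with a pseudocount of 5, which no longer passes 2-fold.

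The levels rest on unequal numbers of reads. If all reads lay on the longest annotated transcript of IGFBP5 (6215 bases), its values would correspond to about 2381 reads in untreated and 1345 in treated T24, and to about 147 and 46 in untreated and treated 5637. For IGFBP1 (1653 bases) the same reckoning gives about 118 and 95 reads in T24 and about 23 and 8 in 5637. Counting error is thus small for IGFBP5 in T24 and large for IGFBP1 in 5637, and neither covers differences between cultures.

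Beside the lower IGFBP5, the endothelial marker list summed to 1.98 FPKM in untreated and 1.01 FPKM in treated T24. Of its 5 genes, CDH5 was at 1.57 and 0.777 FPKM and PECAM1 at 0.381 and 0.206 FPKM, whereas KDR had a value of 0 in untreated and treated T24 alike, and VWF was at 0.0293 and 0.00966 FPKM. TEK was listed at 0 in untreated T24 and was at 0.0147 FPKM in treated T24. In 5637 the list summed to 0.171 and 0.123 FPKM. The part of these transcripts in the result was not tested.

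The remaining members compared in T24 lay between -0.39 and 0.17. IGFBP1 was lower in treated T24, at 63% of untreated, and 3.76% of all genes compared had a lower value than its -0.39. IGFBP4 was at -0.15 (17.1% of genes lower), IGFBP7 at 0.044, IGFBP3 at 0.079 and IGFBP6 at 0.088. The receptors were slightly higher in treated T24, at 0.15 for IGF1R and 0.17 for IGF2R, with 78.6% and 81.5% of all genes below them. Of the 8 members compared, 3 were below 0 and 5 above, with a median of 0.062, beside 44.0% of all genes below 0 and a median of 0.025 over all genes.

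In 5637 the treated library was lower for all 6 members compared, by 0.37 or less. IGFBP3 showed the largest of these differences at -0.37 (76.5% of untreated), and 2.79% of all genes compared were lower. IGFBP6 was at -0.32 (79.2% of untreated, 3.92% of genes lower), IGFBP4 at -0.14 and IGFBP7 at -0.080. IGF2R was at -0.062 and IGF1R at -0.0046, nearly the same in both libraries. The median over these members was -0.11, beside 0.043 over all 12635 genes compared, of which 38.5% were below 0. No member reached 2-fold in 5637, where 27 genes (0.214%) were at least 2-fold lower and 22 (0.174%) at least 2-fold higher. In the same line 4 of 4 mesenchymal markers compared were below 0 (median -0.24), as were 8 of 10 epithelial markers (median -0.18). In T24 these lists had 5 of 5 (median -0.093) and 6 of 7 (median -0.17) below 0, beside 44.0% of all genes there. The part of these lists in the result was not tested.

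IGFBP5 and IGFBP1 were under 1 FPKM in 5637 and were not among the members compared there. Their values were nevertheless lower in the treated library, IGFBP5 at 37.1% and IGFBP1 at 41.0% of the untreated level. On the log2(FPKM + 1) scale, which compresses such low values, these were differences of -0.29 and -0.17. With a pseudocount of 0.1 the difference of IGFBP5 in 5637 was -1.01, and with 5 it was -0.070. The share of mitochondrial transcripts was higher in the treated 5637 library (11.9% against 9.84%), and its part in these differences was not tested. With levels rescaled without mitochondrially encoded genes, IGFBP3 was at -0.38 and IGFBP6 at -0.33 in 5637. With median-ratio scaling they were at -0.43 and -0.38, and IGF1R was at -0.061.

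**Figure D2:**
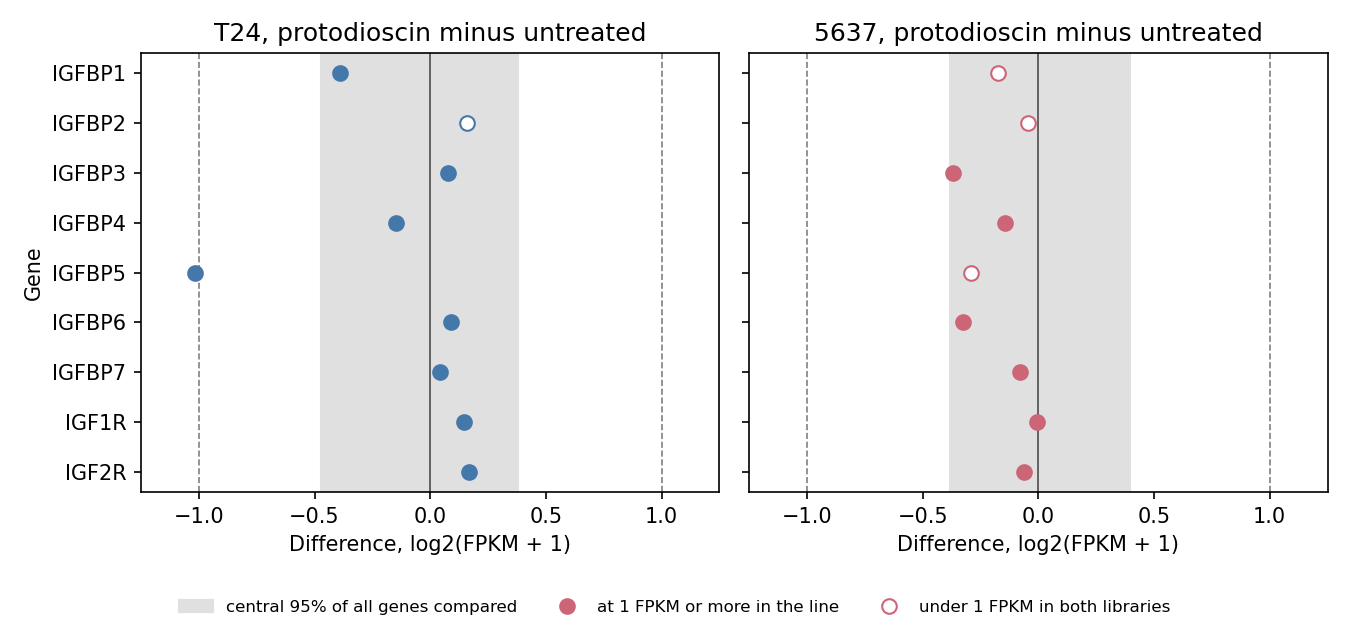
Treated minus untreated level of each member (vertical axis) on the log2(FPKM + 1) scale (horizontal axis) in T24 and in 5637, from 1 library a group. Dashed lines mark 2-fold and the grey band holds the central 95% of all genes compared in that line (-0.47 to 0.38 in T24 and -0.38 to 0.39 in 5637). IGFBP5 in T24, at -1.02, is the only member outside the band, and open points are under 1 FPKM in both libraries.

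Between the lines, IGFBP3, IGFBP4, IGFBP6 and IGFBP7 were higher in T24 and IGF2R was lower, whereas IGF1R did not pass the test. This contrast was not the one used to choose the set. A limma model of the 4 libraries with terms for line and for treatment gave the test, adjusted by Benjamini-Hochberg over 12893 genes. The fit has 1 residual degree of freedom. With 1 library for each line and treatment, that residual is the gap between the untreated and the treated pair, moderated by the trend over all genes. The prior from all genes carries 4.99 degrees of freedom. The variance behind each p therefore rests more on that prior than on how far the pairs of the gene agree. Dose differs between the lines as well. The p measures no spread between replicate cultures or technical repeats, and the labels do not say whether cultures were independent. The lines differ widely, with 4521 genes (35.1%) called higher and 4365 (33.9%) called lower in T24, 8886 in all, against 5624 without untreated 5637 and 5779 without treated 5637. Of the 6 members tested, 4 were called higher and 1 lower in T24. Most genes tested were called as well. The split between the directions was not tested, and 6 members are too few to read it as a trait of the set. Only the sizes below describe the members. IGFBP5 has no p-value here because the T24 libraries that chose it enter the contrast. IGFBP1 has none because it met the filter of 1 FPKM in 2 libraries only through T24, where it is high, and it is described by its levels alone, which in T24 were 7.39 times (untreated) and 11.4 times (treated) those in 5637.

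IGFBP4 had the largest coefficient of the members tested, 3.15 on the log2(FPKM + 1) scale (SE 0.062, limma adjusted p = 1.06e-06), which is 8.87-fold. It was larger than the absolute coefficient of nearly all genes, with 1.68% exceeding it. The untreated pair and the treated pair gave almost the same difference, at 3.15 and 3.15. IGFBP7 followed at 2.24 (SE 0.064, limma adjusted p = 2.73e-06), with 4.10% of genes exceeding it.

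IGFBP3 was higher in T24 by 1.20 (SE 0.11, limma adjusted p = 2.00e-04). Its pairs gave 0.98 untreated and 1.43 treated. IGFBP6 was higher by 0.56 (SE 0.11, limma adjusted p = 0.00382), with 0.36 in the untreated and 0.77 in the treated pair, and lost its call without a filter on low genes (limma adjusted p = 0.0635).

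IGF2R was lower in T24 by a small amount, at -0.30 (SE 0.084, limma adjusted p = 0.0209), and 63.7% of genes had a larger absolute coefficient. The call was lost in 3 of the 4 fits that left out a library, with cell line as the only term, at a limma adjusted p of 0.116 without untreated T24, 0.161 without untreated 5637 and 0.110 without treated 5637. Over all its alternatives the limma adjusted p of IGF2R ran from 0.0145 to 0.161. IGF1R was at -0.18 (SE 0.085, limma adjusted p = 0.0988), with a 95% interval from -0.39 to 0.024, so the interval holds both no difference and a difference larger than that measured for IGF2R. Leaving out untreated T24, with cell line as the only term, put IGF1R at -0.11 (limma adjusted p = 0.421), and its limma adjusted p ran from 0.0898 to 0.421 over all its alternatives.

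**Figure D3:**
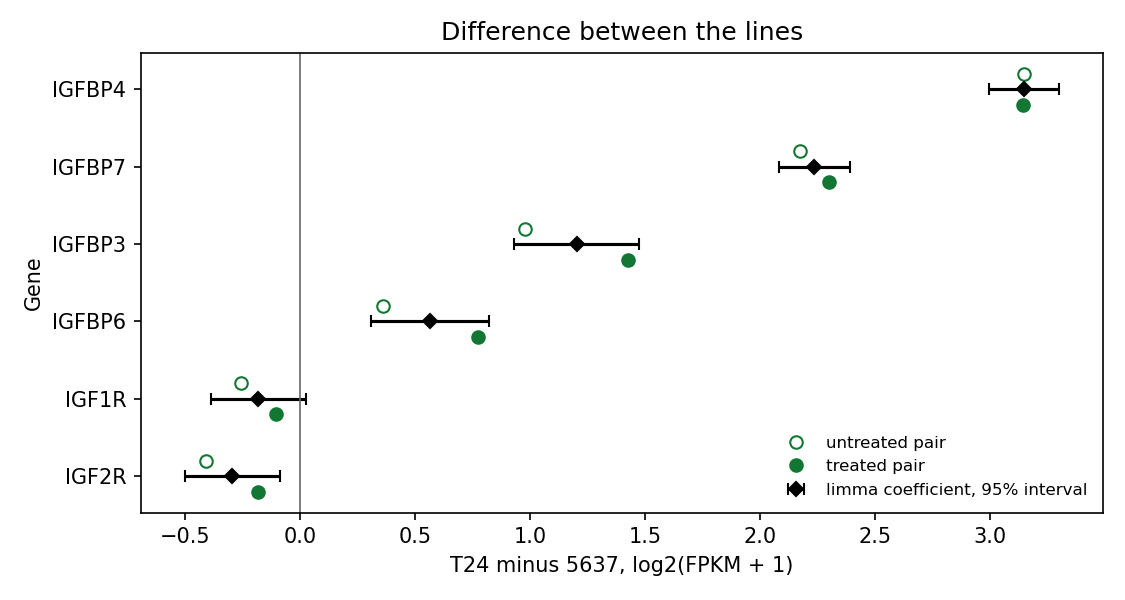
T24 minus 5637 (horizontal axis, log2(FPKM + 1)) for the 6 members at 1 FPKM or more in both lines, by gene on the vertical axis. Diamonds are the limma coefficients with their 95% intervals over 4 libraries, and circles are the differences of the untreated pair (open) and of the treated pair (filled). IGFBP4 at 3.15 and IGFBP7 at 2.24 lie farthest to the right, and only the interval of IGF1R crosses 0.

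By a rule of distance over all 4 libraries, DKK1, C5orf46, ANKRD1, RGS4 and HYI had the patterns most like IGFBP5 among 10923 genes. The distance is Euclidean, between log2(FPKM + 1) values centred on each gene's mean, and the points share the same 4 libraries. DKK1, a secreted inhibitor of Wnt signalling, was closest at a distance of 0.19. Its levels were 161.2 and 93.2 FPKM in untreated and treated T24 and 22.8 and 19.9 FPKM in 5637. Like IGFBP5 it was higher in T24 and lower with treatment in both lines, by -0.78 in T24 and -0.19 in 5637.

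C5orf46, which encodes a small secreted peptide, was at a distance of 0.35, with 8.57 and 5.16 FPKM in T24, against 0.224 and 0.170 FPKM in 5637. ANKRD1, a nuclear ankyrin repeat protein, was at a distance of 0.40, with 38.9 and 19.97 FPKM in T24, against 2.96 and 2.97 FPKM in 5637. RGS4, a regulator of G-protein signalling, was at 0.48, with 27.9 and 10.6 FPKM in T24, against 1.55 and 1.19 FPKM in 5637. In treated T24 it was lower than untreated by more than IGFBP5, at -1.32. HYI, a putative hydroxypyruvate isomerase, was at 0.52. HYI was at 19.8 and 11.7 FPKM in T24 and, unlike IGFBP5, was higher in treated 5637, at 1.97 and 2.65 FPKM. These 5 genes were found by their likeness in this same table, so the likeness is no test.

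**Figure D4:**
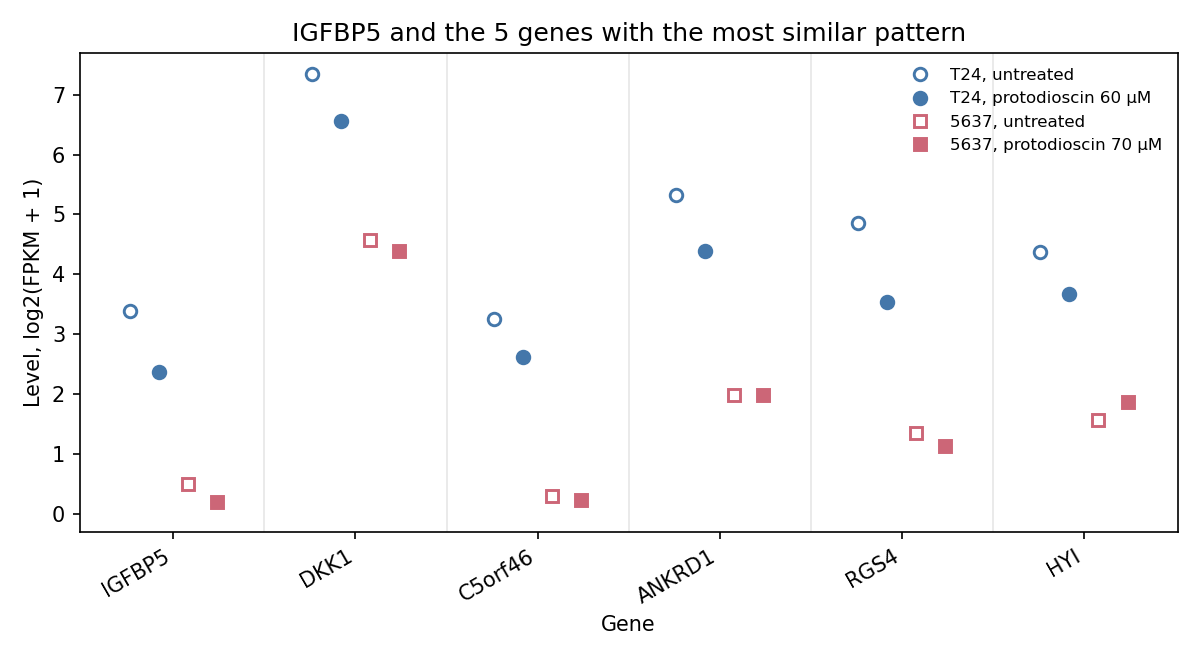
Levels on the log2(FPKM + 1) scale (vertical axis) of IGFBP5 and the 5 genes nearest to it in pattern (horizontal axis), 1 point for each library. In all 6 genes untreated T24 is highest and treated T24 next, with both 5637 libraries below.

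Among the ligands, IGF2 was the only one above 0 FPKM in these libraries. IGF2, the fetal growth factor bound by the high-affinity binding proteins, was at 81.5 FPKM untreated and 79.3 FPKM treated in T24, against 27.4 and 21.5 FPKM in 5637. IGF1 and INS were listed at 0 in all 4 libraries, and IGFALS, which stabilises IGF complexes in blood, was at 0.035 FPKM in treated T24 and listed at 0 elsewhere. In 5637 the difference of IGF2 was -0.33, close to those of IGFBP3 and IGFBP6, while in T24 it was -0.040. IGF2 shares exons with INS-IGF2, AC132217.1 and a further Ensembl entry also named IGF2, so its share of reads is an estimate. Values of those entries are not given here, and the ratios that follow rest on the IGF2 entry above alone. The summed FPKM of the binding proteins was 20.9 and 19.7 times that of IGF2 in T24 and 9.13 and 10.3 times in 5637.

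Proteases that cut binding proteins, with the stanniocalcins that block pappalysin, showed no member at 2-fold in either line. In T24, 3 of 7 compared were above 0 and 4 below (median -0.015), and in 5637, 1 of 8 was above 0 and 7 below (median -0.16). Of all genes compared, 44.0% were below 0 in T24 and 38.5% in 5637. CTSD, the lysosomal protease cathepsin D, which shares exons with another annotated gene, was at 140 and 150 FPKM in T24, against 165 and 127 FPKM in 5637. STC2, an inhibitor of pappalysin, was at 109.9 and 90.3 FPKM in T24, against 60.9 and 60.2 FPKM in 5637. PLAT, the tissue plasminogen activator, was at 114 and 113 FPKM in T24, against 50.01 and 40.6 FPKM in 5637, and the metalloprotease ADAM9 was at 61.0 to 67.9 FPKM throughout. PAPPA itself, the protease that cuts IGFBP4, was at 0.678 to 1.16 FPKM over the 4 libraries and was named after its values were seen, as was STC1, the other stanniocalcin, at 0.0331 and 0.0479 FPKM in T24, against 7.83 and 5.37 FPKM in 5637.

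No adaptor of the receptors reached 2-fold in either line. Of 10 adaptor and receptor genes compared in T24, 4 were above 0 and 6 below (median -0.0070), and of 11 in 5637, 4 were above and 7 below (median -0.0059). The shares below 0 over all genes were 44.0% in T24 and 38.5% in 5637. RACK1, a scaffold that binds IGF1R and whose gene holds small nucleolar RNAs, was at 489 to 591 FPKM, and GRB2, which links receptors to RAS, was at 40.0 and 47.6 FPKM in T24, against 51.6 and 55.8 FPKM in 5637. SHC1, another adaptor of the receptor that shares exons with PYGO2, was at 68.9 and 68.3 FPKM in T24, against 25.3 and 24.3 FPKM in 5637. The phosphatase PTPN11 was at 39.2 to 41.2 FPKM.

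All 24 genes of the PI3K, AKT and FOXO list were compared in both lines, with 17 above 0 in T24 (median 0.052) and 12 in 5637 (median 0.0095). The shares above 0 over all genes were 56.0% in T24 and 61.5% in 5637. PIK3R2, a regulatory subunit of PI3-kinase, was the single gene at 2-fold, at 21.1 and 7.12 FPKM in 5637, but it shares exons with another annotated gene (AC007192.1), and its value is uncertain. AKT1, the kinase downstream of PI3-kinase, was at 111 and 108 FPKM in T24, against 80.6 and 84.3 FPKM in 5637. The related AKT2 was at 32.7 and 27.5 FPKM in T24, against 34.7 and 33.0 FPKM in 5637. EIF4EBP1, a translation repressor, was at 40.2 to 53.1 FPKM, and RHEB, the activator of mTOR, was at 32.4 to 42.6 FPKM.

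Secreted or membrane proteins that carry an IGFBP-type domain at their N terminus had medians of opposite sign in the lines. In T24, 5 of 6 compared were below 0 with a median of -0.44, and in 5637, 3 of 7 were below 0 with a median of 0.017. Over all genes compared, 44.0% were below 0 in T24 (median 0.025) and 38.5% in 5637 (median 0.043). CCN1, a matricellular protein, was lower in treated T24 (-0.66) but was at 22.8 and 33.7 FPKM in 5637 (0.54), and CCN2, its relative, was at 61.1 and 40.9 FPKM in T24 (-0.57), against 4.85 and 6.58 FPKM in 5637 (0.37). CRIM1, a membrane protein that binds bone morphogenetic proteins, was at 82.2 and 64.8 FPKM in T24 (-0.34), against 23.1 and 23.4 FPKM in 5637. ESM1, a proteoglycan made by endothelium that shares exons with another annotated gene, was at 7.33 and 4.72 FPKM in T24 (-0.54), against 20.0 and 16.9 FPKM in 5637 (-0.23). No gene of this list reached 2-fold, and the difference between the lines was not tested.

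Genes that act with IGF2R in mannose 6-phosphate sorting lay mostly above 0. Of 12 compared, 9 were above 0 in T24 (median 0.058) and 12 in 5637 (median 0.094), beside 56.0% and 61.5% of all genes above 0. M6PR, the smaller mannose 6-phosphate receptor, was at 41.1 and 44.0 FPKM in T24, against 45.9 and 50.4 FPKM in 5637. VPS29 and VPS35, subunits of the retromer that returns receptors to the Golgi, differed in level. VPS29, whose exons overlap a small RNA gene, was at 38.8 and 40.7 FPKM in T24, against 33.4 and 41.0 FPKM in 5637. VPS35 was at 29.4 and 28.0 FPKM in T24, against 17.3 and 17.5 FPKM in 5637. AP1M1, a subunit of the adaptor complex of the Golgi, was the lowest in T24 at 22.2 and 14.7 FPKM and was named after its values were seen. The Golgi adaptor GGA1 was at 16.4 to 19.5 FPKM.

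Cell-surface partners of binding proteins had 3 of 8 members above 0 in T24 (median -0.028) and 2 of 7 in 5637 (median -0.018), with none at 2-fold. Of all genes compared, 56.0% were above 0 in T24 and 61.5% in 5637. CAV1, the coat protein of caveolae, was at 149 and 111 FPKM in T24, against 223 and 189 FPKM in 5637. The integrin subunits ITGB1 and ITGAV were at 237 to 357 FPKM and at 20.4 to 24.1 FPKM, and the transferrin receptor TFRC was at 48.3 to 81.0 FPKM. The IGF2 mRNA-binding proteins, which bind RNA and are not members of the family, had 2 of 3 members above 0 in T24 and 0 of 2 in 5637. IGF2BP1 was at 4.69 and 4.90 FPKM in T24, against 0.0161 and 0.0720 FPKM in 5637. IGF2BP2 was at 32.9 and 30.5 FPKM in T24, against 42.0 and 38.1 FPKM in 5637, and IGF2BP3 was at 6.85 and 7.92 FPKM in T24, against 16.8 and 15.9 FPKM in 5637.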

How the data were processed

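Messenger RNA was measured in 4 libraries, 1 for each line and treatment. The authors deposited gene-level FPKM, and the submitters' processing notes name Trimmomatic, HISAT2, StringTie and GRCh38, with their versions and settings not given in the sources used here. Per the labels' protocols, libraries were made with a TruSeq RNA v2 kit, which does not mark strand, and sequenced as paired reads of 150 bases. Where genes share exons, StringTie estimates how reads are split, so their values are uncertain. Read totals are unknown, so no intervals of counting error are given.

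FPKM were put on the log2(FPKM + 1) scale (Python 3.11.15, pandas 2.3.3), where differences understate changes of low genes. Within a line, a gene was compared if either library had 1 FPKM or more, with 2-fold as the size rule and no test. The difference between the lines was tested with limma 3.58.1 (R 4.3.3, trended prior variance, adjusted p below 0.05) on genes that reached 1 FPKM in 2 or more libraries. The fit was also run on simulated data with noise drawn from its own fitted trend. That run shares the assumptions of the model, so it lends no support to the calls here. Coordinates and exon overlap come from GENCODE 29 on GRCh38. The members, lists and rules were chosen with earlier results of these data known. Named are all 9 members and, in each list, genes past 2-fold and up to 4 with the highest mean FPKM, with IGF1, IGF2, INS and INSR always, while the marker genes named were picked after their values were seen. The 5 nearest genes had a symbol, reached 1 FPKM in 1 library and shared no exon on the same strand. Alternatives covered pseudocount, scaling, filter, prior variance, model terms and libraries left out.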

Additional observations from a re-analysis of the deposited data

Results flagged for a closer look

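For 5 of the 6 members at 1 FPKM or more in both lines, the treated library was higher than the untreated one in T24 and lower in 5637, with 1 library a group, and the difference between the lines was not tested. Over all genes compared, 56.0% were above 0 in T24 and 38.5% were below 0 in 5637. The share of genes with both signs was not counted, so 5 of 6 is not read as a trait of the members. The T24 difference minus that in 5637, on the log2(FPKM + 1) scale, was 0.45 for IGFBP3 (0.079 in T24 and -0.37 in 5637), 0.41 for IGFBP6 (0.088 and -0.32), 0.23 for IGF2R (0.17 and -0.062), 0.15 for IGF1R (0.15 and -0.0046) and 0.12 for IGFBP7 (0.044 and -0.080). IGFBP2, under 1 FPKM in all libraries, had the same signs (0.16 and -0.046). Dose differs between the lines as well, so dose and line cannot be told apart.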

How the results depend on the processing

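Of 54 differences of all 9 members in T24, those under 1 FPKM included, under other pseudocounts and scalings, 52 stayed on the same side of 2-fold, as did 53 of 54 in 5637, and none changed sign. The exceptions were IGFBP5 in T24 (-0.66 with a pseudocount of 5) and, with a pseudocount of 0.1, IGFBP2 in T24 (1.11, against a library at 0) and IGFBP5 in 5637 (-1.01). Genes past 2-fold numbered 59 in T24 and 49 in 5637, but 34 and 17 with a filter at 5 FPKM, 156 and 121 with a pseudocount of 0.1, 17 and 10 with a pseudocount of 5, and 15 and 14 without genes sharing exons on the same strand. Of 84 line coefficients of the 6 members at 1 FPKM or more in both lines, 78 kept their direction and call and none reversed. IGF2R lost its call with TPM scaling (-0.23, limma adjusted p = 0.0846) and without a filter (-0.30, adjusted p = 0.0921), and IGFBP6 without a filter (0.56, adjusted p = 0.0635), where 27829 genes were tested. With each library left out in turn and cell line as the only term, the coefficient of IGF2R ranged from -0.38 to -0.21 (-0.27 without untreated 5637, -0.33 without treated 5637) and the number of genes called between the lines from 5624 to 7097 (5779 without treated 5637), against 8886 with all libraries. A line left with 1 library is then assumed to vary like the other. No paired analysis was possible because the labels carry no replicate numbers and each group has 1 library, although the treatment term already compares the lines within each treatment. Depth limits IGFBP2 and, in 5637, IGFBP1 and IGFBP5, and IGFBP1 was low in T24 as well.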
